A study of Mus musculus with 9 samples.

Results

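These results describe 59 genes whose signal in mouse skin was highest when oral vanillin was added to imiquimod, above both the skin without imiquimod and the skin with imiquimod alone. A probe entered the set when its vanillin mean on the log2 scale exceeded the mock mean and the imiquimod mean by 0.7 or more, when its lowest vanillin array lay above the highest of the other 6 arrays, and when its mean over the 9 arrays was 8 or more. The rule kept 59 of 26423 probes, of which 20377 carry a gene symbol, and thus 59 of 17742 genes. A further 11 probes without a symbol met the same values. Another 13 named probes met them but were left out by symbol, because genes beginning with Cxcl, Ccl, Il, Mmp, Sprr, Fos or Dusp were set aside: Cxcl2, Sprr2f, Il24, Sprr2i, Fos, Ccl4, Cxcl13, Mmp13, Dusp1, Il33, Sprr2g, Mmp9 and Il1f8. The genes were chosen by their measured differences of vanillin from mock and from imiquimod, so those differences are given as a description and without a test. The difference between imiquimod and mock was not ordered by the rule and was tested.

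Total RNA of female BALB/c mice was labelled with Cy5 and measured on 9 single-colour arrays, 3 in each of 3 groups. For 7 days the shaved backs of the mock group were covered daily with Vaseline cream. In the group named IMQ, imiquimod took the place of Vaseline; imiquimod activates toll-like receptor 7 and produces a psoriasis-like inflammation. The third group, called vanillin here, had imiquimod and 100 mg/kg of oral vanillin by the treatment protocol, although its source label joins the agents with "and/or". No group is labelled as vanillin alone. The labels name skin as the tissue and muscle in the extraction text. The 12 keratinocyte markers and the 8 measured skeletal muscle markers had mean log2 intensities of 15.89 to 16.58 and 14.52 to 15.14, beside array medians of 9.297 to 9.302. Whether each array holds RNA of its own mouse is not labelled, and every p-value therefore reflects array-to-array spread that could be technical. Median intensities were 628.9 to 631.1, and with 3 arrays a group the precision is limited.

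Imiquimod-treated skin is known for thickened, abnormally cornified epidermis and for an influx of neutrophils and other leukocytes. The cornified envelope is built late in keratinocyte differentiation from proteins such as the late cornified envelope (Lce) family, whose genes lie side by side in the epidermal differentiation complex. Cyclic AMP, which relays hormone and prostaglandin signals, acts partly through CREB-family factors at the cyclic AMP response element (CRE) and is broken down by phosphodiesterases. Hyaluronan, a large sugar polymer of the skin matrix, is made by Has enzymes and bound by the protein TSG-6, the product of Tnfaip6.

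Promoter sequence was available for 48 of the 59 genes in RefSeq (build GRCm38.p6). The following stretches are shown because they hold a CRE in front of Dio2 and Has1, an AP-1 motif in front of Tnfaip6, or belong to the neighbouring pair Lce3a and Lce3b. Dio2 (chr12:90739039-90739158) and Has1 (chr17:17855189-17855308) are on the minus strand and end at the base before the gene start, with the CRE in capitals. Tnfaip6 (chr2:52037931-52038090, plus strand) ends 23 bases before the start and has the AP-1 motif in capitals. Lce3a (chr3:92926231-92926350, minus strand) and Lce3b (chr3:92932859-92932978, plus strand) end at the base before the start, and capitals mark their longest shared run, of 9 bases.

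Dio2: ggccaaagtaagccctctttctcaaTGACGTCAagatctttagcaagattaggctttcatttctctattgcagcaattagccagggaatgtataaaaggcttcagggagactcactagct
Has1: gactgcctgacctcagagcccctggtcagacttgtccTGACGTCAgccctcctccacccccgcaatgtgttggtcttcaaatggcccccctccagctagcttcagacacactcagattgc
Tnfaip6: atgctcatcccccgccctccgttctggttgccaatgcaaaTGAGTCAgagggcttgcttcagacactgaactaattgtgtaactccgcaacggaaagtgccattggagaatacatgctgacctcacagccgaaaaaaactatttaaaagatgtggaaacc
Lce3a: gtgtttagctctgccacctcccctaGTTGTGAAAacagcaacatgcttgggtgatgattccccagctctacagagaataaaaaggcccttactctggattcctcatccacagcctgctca
Lce3b: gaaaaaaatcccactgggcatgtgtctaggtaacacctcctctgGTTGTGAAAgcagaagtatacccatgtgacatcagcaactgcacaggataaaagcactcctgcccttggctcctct

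In the 250 bases before the start, searched on both strands, the CRE (TGACGTCA) was found in 2 of 48 genes, or 4.17%, beside 1.77% of 27025 genes with a promoter entry. The AP-1 motif (TGANTCA) was found in 5 of 48, or 10.4%, beside 7.82%: Tnfaip6, Slfn4, Rnh1, Mrps25 and Grid2ip. The NF-kB motif was found in 5 of 48, or 10.4%, beside 4.46%: Elf3, Pde4b, Cdhr1, Zc3hav1 and D830031N03Rik. The STAT motif (TTCNNNGAA) was found in 12.5% beside 8.13%, the E-box (CACGTG) in 6.25% beside 6.86% and the TATA box (TATAAA) in 18.8% beside 14.3%. No pattern contains another. These are matches of letters, not tests of binding.

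The 59 genes fell into 3 shapes by the test of IMQ against mock, made in limma over all probes with Benjamini-Hochberg adjustment. Imiquimod raised 17 of them, lowered 2 and left 40 without a call; of all probes 53.6% were called, 24.0% higher and 29.6% lower. The IMQ arrays lay all above the mock arrays for 21 genes and all below for 3, beside 31.9% and 36.1% of all probes. The median change from mock to IMQ was 0.09 on the log2 scale, beside -0.04 over all probes, with 0.171 without mock replicate 1 and 0.056 without mock replicate 2. Single genes ran from -0.63 for Has1 to 3.31 for Fetub. The vanillin mean exceeded the mock mean by 0.70 to 4.69, with a median of 1.04, and the IMQ mean by 0.70 to 1.78, with a median of 0.86. The rule used these 2 contrasts: limma called all 59 genes higher against IMQ (of all probes 41.2% were called, 24.3% higher) and 57 of 59 against mock (26.7% called, 11.9% higher and 14.7% lower), all but Mindy4 and Grid2ip, and nothing is read from those counts. Of all probes, 7.21% had all vanillin arrays above the other 6.

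**Figure D1:**
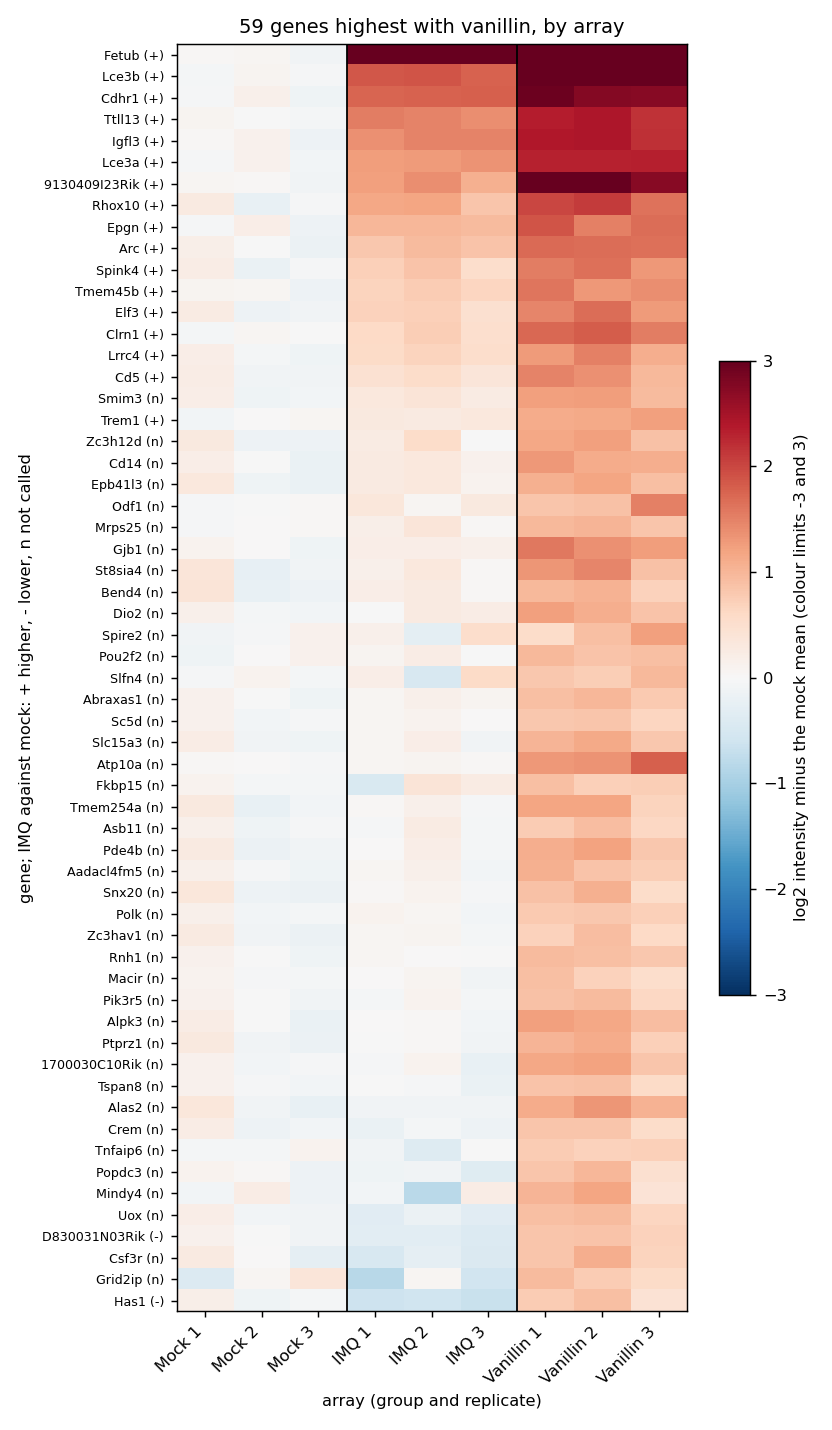
Log2 intensity of the 59 genes (rows) on each of the 9 arrays (columns), minus the mean of the mock arrays; red is above and blue below the mock mean, and values beyond 3 share the darkest colour. Genes run from the largest rise (Fetub, 3.31) to the largest fall (Has1, -0.63) of IMQ against mock, and most of the middle genes are pale in the IMQ columns and red in the vanillin columns.

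**Figure D2:**
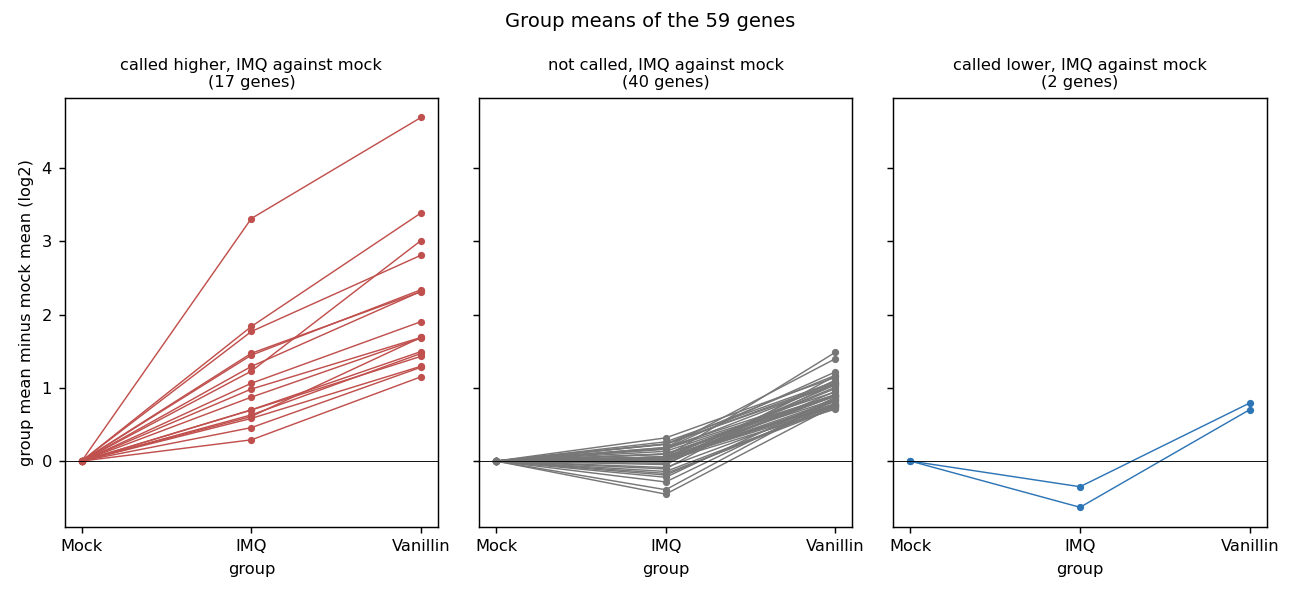
Group means of each gene minus its mock mean (log2, vertical axis) in the mock, IMQ and vanillin groups, in 3 panels by the call of IMQ against mock. The 17 genes called higher climb in steps, the 40 not called stay within -0.45 and 0.32 of mock in the IMQ group, and the 2 called lower dip first; the last point is highest by the rule that chose the genes.

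Genes assigned here to the epidermal barrier, junctions and epithelial growth factors made up 9 of the 59, and imiquimod raised 8 of these 9. Of all probes, 24.0% were called higher. The group, like the other role groups, was drawn after the members were known, so its count is only a description. Lce3b read 8.58, 8.70 and 8.60 on the mock arrays, 10.48, 10.52 and 10.39 on the IMQ arrays and 12.09, 12.14 and 11.82 on the vanillin arrays. Its rise with imiquimod was 1.84 ± 0.10 (SE, adjusted p = 4.87e-06), and vanillin stood a further 1.55 above IMQ. The groups formed 3 separate steps.

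Lce3a, its neighbour on chromosome 3, read 10.75, 10.92 and 10.70 in mock, 12.04, 12.06 and 12.14 in IMQ and 13.11, 13.09 and 13.12 in vanillin skin. It rose by 1.29 ± 0.09 (SE, adjusted p = 1.08e-05) with imiquimod and stood 1.02 higher again with vanillin, with the closest agreement of the vanillin arrays among the 59 genes (SD 0.01, n = 3). Of the family, Lce3e showed the same order without reaching the margin: it rose by 3.29 with imiquimod and was 0.64 higher with vanillin than with IMQ (adjusted p = 0.00418). Lce3f went the other way, at -0.82 for vanillin against IMQ (adjusted p = 0.0102). These 2 family members were looked up after Lce3a and Lce3b were known to be in the set.

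Fetub, a fetuin of the cystatin superfamily that inhibits astacin metalloproteinases, had the largest change. It read 8.20, 8.22 and 8.06 in mock, 11.49, 11.52 and 11.41 in IMQ and 13.05, 12.74 and 12.76 in vanillin skin. Imiquimod raised it 9.93-fold (log2 3.31 ± 0.10 SE, adjusted p = 2.04e-07) and the vanillin group read 2.60-fold above IMQ. A second Fetub probe was dim, with a mean of 6.51, and read 0.46 lower with vanillin than with IMQ. The related fetuin Ahsg read 0.40 higher with vanillin than with IMQ (adjusted p = 0.0235).

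Epgn encodes epigen, a ligand of the EGF receptor. It read 12.14, 12.35 and 12.00 in mock, 13.16, 13.16 and 13.12 in IMQ and 14.04, 13.67 and 13.85 in vanillin skin. It rose by 0.98 ± 0.12 (SE, adjusted p = 0.000233) with imiquimod, and at 0.7045 above IMQ it lay just inside the margin. Among the 5 other measured EGF receptor ligands, vanillin against IMQ gave 1 higher (Egf), 1 lower and 3 not called. Over all probes, 24.3% were higher and 17.0% lower. Imiquimod had lowered Egf (-0.90 against mock), and with vanillin it was not called against mock (-0.29, adjusted p = 0.0878). Ereg, which imiquimod raised by 2.64, was 1.01 lower with vanillin. The receptor gene Egfr read -0.16 for vanillin against IMQ (adjusted p = 0.176).

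Elf3, an ETS transcription factor of differentiating epithelium, read 9.42, 9.04 and 9.08 in mock, 9.88, 9.89 and 9.65 in IMQ and 10.63, 10.85 and 10.46 in vanillin skin. Imiquimod raised it by 0.63 ± 0.14 (SE, adjusted p = 0.00525). Its relative Ehf showed the same order, rising by 1.12 with imiquimod and reading 0.49 higher again with vanillin (adjusted p = 0.00684), whereas Elf5 fell with imiquimod by 1.06 and read -0.12 for vanillin against IMQ. Relatives and binding partners of members were listed after the members, and the values of some, were known. Over the 39 such genes measured, vanillin against IMQ gave 16 higher, 6 lower and 17 not called, beside 24.3% and 17.0% of all probes.

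Gjb1, which encodes the gap junction protein connexin 32, was the exception among these 9 genes in its IMQ step. It read 8.0, 7.92 and 7.78 in mock and 8.10, 8.10 and 8.05 in IMQ skin, a difference of 0.18 ± 0.11 (SE, adjusted p = 0.178), but 9.48, 9.26 and 9.15 with vanillin. The vanillin group thus read 2.32-fold above IMQ. Of its relatives, Gjb6 was 0.56 higher with vanillin than with IMQ (adjusted p = 0.0161) but was not called against mock (0.31, adjusted p = 0.16). Gjb2 and Gjb5 were not called in either comparison.

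The other 3 genes of this group rose with imiquimod and stood above it with vanillin. Igfl3, of the insulin growth factor-like family, rose by 1.45 ± 0.11 and its vanillin arrays read 10.81, 10.85 and 10.60 against 9.78 to 9.90 in IMQ. Tmem45b, a transmembrane protein gene, rose by 0.70 and read 12.73 to 13.04 with vanillin against 12.09 to 12.20 in IMQ. Spink4, a Kazal-type protease inhibitor, rose by 0.70 and read 9.74, 9.85 and 9.5 with vanillin against 8.72 to 9.06 in IMQ. All 9 genes kept the mock, IMQ and vanillin means in ascending order. The rule put vanillin highest, and 45 of all 59 members had a higher mean in IMQ than in mock.

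Arc, an immediate early gene best known from neurons, was the only member among the 44 measured immediate early genes once Fos and Dusp1 were set aside by name. It read 11.03, 10.84 and 10.66 in mock, 11.65, 11.80 and 11.70 in IMQ and 12.55, 12.51 and 12.50 in vanillin skin, and rose by 0.87 ± 0.10 (SE, adjusted p = 0.000189) with imiquimod. Without Arc, Fos and Dusp1, which met the values of the rule, the other 41 genes were compared for vanillin against IMQ. Of these, 6 were higher (14.6%), 9 lower (22.0%) and 26 not called, beside 24.3% higher and 17.0% lower over all probes. Their median was 0.01 beside 0.03 over all probes.

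Genes of cyclic AMP and thyroid hormone metabolism gave 3 members. None of them was called for IMQ against mock, beside 53.6% of all probes called. Pde4b, a phosphodiesterase that degrades cyclic AMP, read 10.84, 10.39 and 10.47 in mock, 10.57, 10.77 and 10.50 in IMQ and 11.66, 11.78 and 11.39 in vanillin skin. The mock and IMQ arrays overlapped and vanillin stood 0.99 above IMQ. A second Pde4b probe, also well lit with a mean of 10.49, did not show this order: it read 10.66 to 10.97 in IMQ and 10.16 to 10.62 with vanillin, so the result for Pde4b rests on 1 of 2 probes.

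Crem, a CREB-family factor whose products include repressors induced by cyclic AMP, read 9.14, 8.78 and 8.85 in mock, 8.72, 8.86 and 8.76 in IMQ and 9.75, 9.76 and 9.47 in vanillin skin. It stood 0.88 above IMQ and 0.74 above mock. Its 3 other probes were dim, with means of 5.87 to 7.24, and had smaller margins of -1.47 to 0.02. The order is thus seen on 1 of 4 Crem probes.

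Dio2, the deiodinase that converts thyroid prohormone to its active form, read 9.20, 9.01 and 8.97 in mock, 9.05, 9.33 and 9.28 in IMQ and 10.28, 10.16 and 9.91 in vanillin skin. It stood 0.89 above IMQ and 1.05 above mock. The promoter of Dio2 holds the CRE shown above, which was found in 2 of 48 genes, Dio2 and Has1, and not in Pde4b. Its part in these values was not tested. Of the other deiodinases, Dio1 was 0.30 lower with vanillin than with IMQ (adjusted p = 0.0439) and Dio3 read 0.21 (adjusted p = 0.284). Among related cyclic AMP genes, Pde4a, Pde4d, Atf1, Nr4a1 and Per1 were called higher with vanillin than with IMQ, by 0.90, 0.94, 0.37, 0.90 and 0.60. Pde4c, Creb1, Prkaca and Prkar1a were not called. Imiquimod had lowered Pde4a, Nr4a1 and Per1, at -0.63, -0.35 and -1.17 against mock. For vanillin against mock, Pde4d, Atf1 and Nr4a1 were called higher, at 0.55, 0.37 and 0.56, and Pde4a was not called (0.26, adjusted p = 0.124). Per1 and Prkaca were lower than mock, at -0.57 (adjusted p = 0.0049) and -0.42 (adjusted p = 0.0239).

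Of the hyaluronan pair, imiquimod lowered Has1 and gave no call for Tnfaip6. Has1, a hyaluronan synthase, read 8.96, 8.65 and 8.73 in mock, 8.16, 8.17 and 8.12 in IMQ and 9.55, 9.68 and 9.21 in vanillin skin. Imiquimod lowered it by 0.63 (SE 0.13, adjusted p = 0.0039), the largest fall among the 59 genes, and vanillin read 2.52-fold above IMQ but only 0.7021 above mock, just inside the margin. Its promoter also holds a CRE, whose part in these values was not tested.

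Tnfaip6 read 8.32, 8.32 and 8.48 in mock, 8.27, 7.99 and 8.35 in IMQ and 9.14, 9.07 and 9.08 in vanillin skin. It was not called for IMQ against mock (-0.17 ± 0.11 SE, adjusted p = 0.227). Of the other synthases, Has2 was called higher with vanillin than with IMQ (0.44, adjusted p = 0.0472) but not against mock (0.38, adjusted p = 0.107). Has3 was not called against IMQ (0.30 ± 0.46 SE, adjusted p = 0.627), but its mock arrays, which share the spread estimate, ran from 7.8 to 9.91. The vanillin arrays of Has3, at 11.28 to 11.46, lay above IMQ (11.02 to 11.07) and mock, and it was called against mock (2.24, adjusted p = 0.00672). The hyaluronan receptor gene Cd44 was 0.80 lower with vanillin than with IMQ, after a rise of 1.57 with imiquimod.

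**Figure D3:**
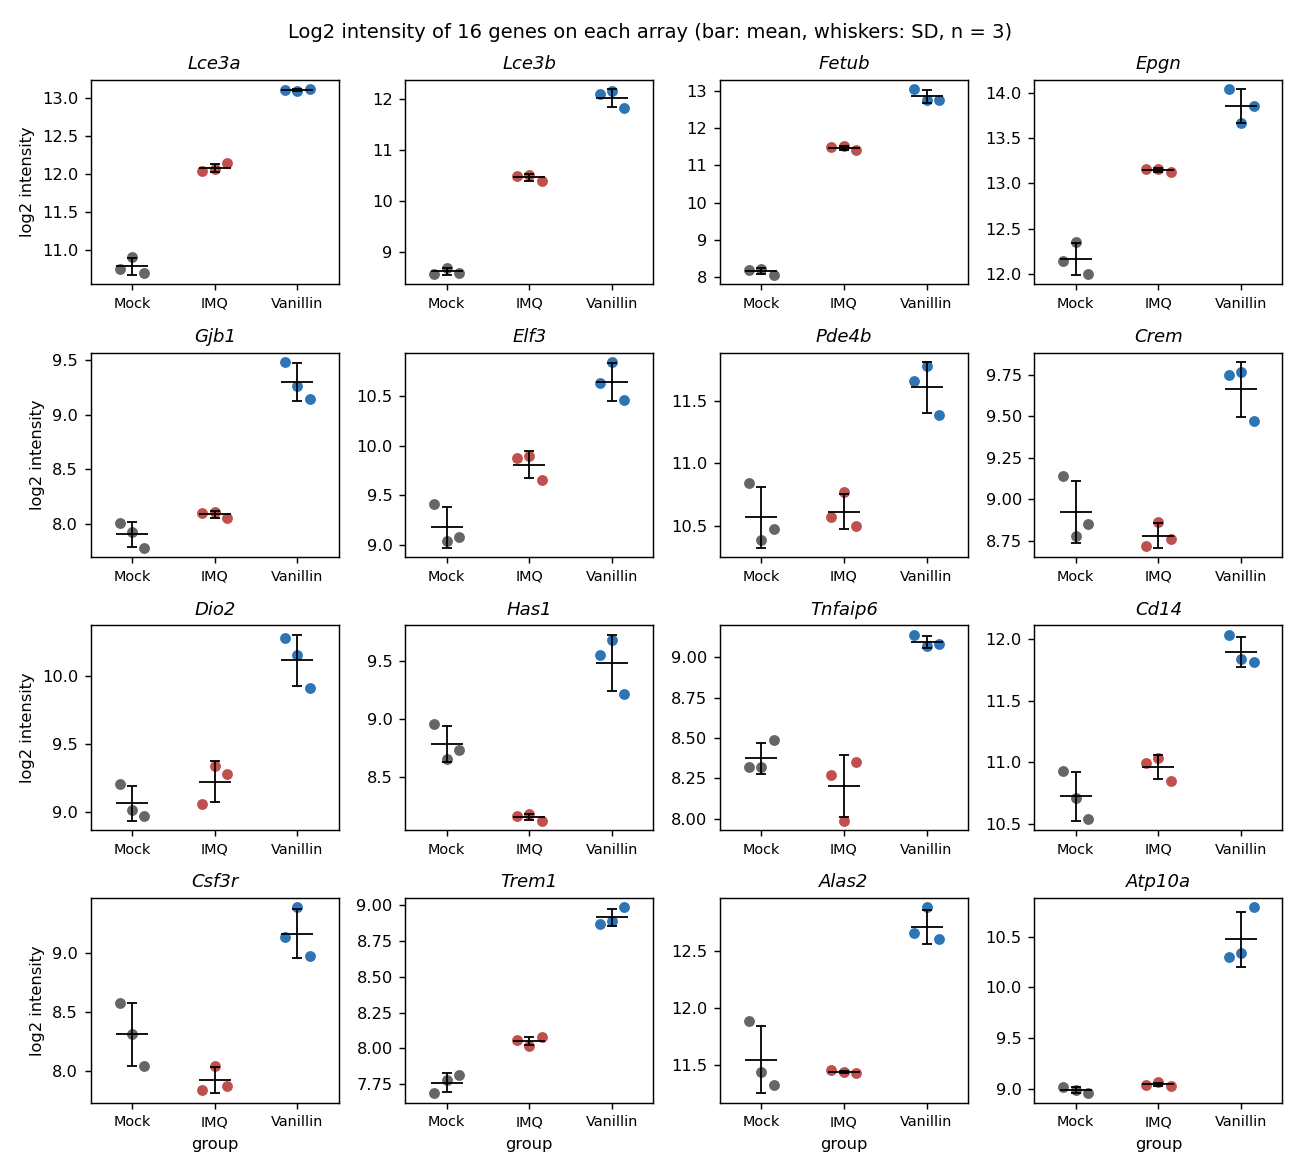
Log2 intensity of 16 of the 59 genes on each array (points) with the group mean (bar) and SD (whiskers, n = 3) in the mock, IMQ and vanillin groups; the vertical axes differ between panels. Lce3a, Lce3b, Fetub, Epgn and Elf3 rise in 2 steps, Has1 is lowest in IMQ at 8.12 to 8.17, and in every panel the vanillin points lie above the others, which the rule required.

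Genes of leukocytes made up 13 of the 59. Imiquimod raised 2 of them, Trem1 and Cd5, and 11 were not called, beside 24.0% of all probes higher and 53.6% called either way. Cd14, the co-receptor for bacterial lipopolysaccharide, read 10.93, 10.71 and 10.54 in mock, 10.99, 11.04 and 10.85 in IMQ and 12.04, 11.84 and 11.82 in vanillin skin, 0.94 above IMQ. It was not called for IMQ against mock (0.23 ± 0.12 SE, adjusted p = 0.133) but was called without mock replicate 1 (0.34, adjusted p = 0.0335). Its partner Tlr4 was 0.42 higher with vanillin than with IMQ (adjusted p = 0.0165) and below mock in IMQ by 0.54. With vanillin Tlr4 was not called against mock (-0.13, adjusted p = 0.439). The other listed partner, Lbp, was 0.58 higher with vanillin than with IMQ (adjusted p = 0.00513) and not called against mock (-0.21, adjusted p = 0.206).

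Trem1, a receptor that amplifies inflammation in neutrophils and monocytes, read 7.69, 7.78 and 7.82 in mock, 8.06, 8.02 and 8.08 in IMQ and 8.86, 8.89 and 8.98 in vanillin skin. Its rise with imiquimod was small, at 0.29 ± 0.08 (SE, adjusted p = 0.0133), and the call was lost without IMQ replicate 1 (adjusted p = 0.052) or IMQ replicate 3 (0.0549). Csf3r, the receptor for the neutrophil growth factor G-CSF, read 8.58, 8.32 and 8.04 in mock, 7.84, 8.05 and 7.88 in IMQ and 9.14, 9.39 and 8.98 in vanillin skin. Its difference of -0.39 ± 0.16 between IMQ and mock was not called (SE, adjusted p = 0.0629), though it was without mock replicate 3 (-0.53, adjusted p = 0.0212) and without vanillin replicate 3 (adjusted p = 0.048). The ligand gene Csf3 read 8.90, 8.71 and 8.91 with vanillin against 7.82 to 8.30 on the other arrays, 0.65 above IMQ (adjusted p = 0.0048), short of the margin.

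Cd5, a T cell surface receptor, rose by 0.46 ± 0.15 with imiquimod (SE, adjusted p = 0.0303), a call lost without mock replicates 2 or 3 or IMQ replicates 1 or 2 (adjusted p up to 0.0918). It read 9.85, 9.75 and 9.35 with vanillin and 8.72 to 8.92 in IMQ. Of the 9 T cell markers measured besides Cd5, 1 was called higher with vanillin than with IMQ, Cd3e, beside 24.3% of all probes. Another 6 were lower, Foxp3 at -1.07 and Cd28 at -1.12 among them, beside 17.0%. Imiquimod had raised 8 of all 10 markers, Cd5 included, beside 24.0% of all probes. Against mock, vanillin gave 4 of the 10 higher, Cd5 included, and 0 lower, beside 11.9% and 14.7%.

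Slc15a3, a lysosomal peptide and histidine transporter of macrophages, stood 0.93 above IMQ, and St8sia4, which builds polysialic acid, 1.04. Slfn4, a schlafen gene of myeloid cells, read 9.15 to 9.38 with vanillin but 7.93 to 8.98 among its IMQ arrays, so its lowest vanillin value cleared the highest other by only 0.17. Pik3r5 (a regulatory subunit of PI3 kinase gamma), Snx20 (a sorting nexin), Pou2f2 (the B cell factor OCT2), Zc3h12d (a zinc finger ribonuclease family member), Macir (a regulator of macrophage metabolism) and Zc3hav1 (the antiviral protein ZAP) stood 0.71 to 0.82 above IMQ. None of these 6 was called for IMQ against mock, beside 53.6% of all probes called. The catalytic partner Pik3cg read 0.06 for vanillin against IMQ (adjusted p = 0.725).

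Of the 21 measured neutrophil markers, Csf3r, Trem1 and Mmp9 met the values of the rule and are therefore highest with vanillin by selection. Among the other 18, vanillin against IMQ gave 6 higher (33.3%), 1 lower and 11 not called, beside 24.3% higher and 17.0% lower over all probes, with a median of 0.19 beside 0.03. The mean log2 intensity of these 18 was 9.26 to 9.33 in mock, 9.75 to 9.82 in IMQ and 9.9 to 10 with vanillin. The summed intensity of all 21 was 45579 to 53772, 157018 to 160404 and 143547 to 158601. The brightest of them in both groups, the calprotectin subunit gene S100a9, read 16.88 to 16.93 in IMQ and 16.67 to 16.83 with vanillin. Of the 16 monocyte and macrophage markers besides Cd14, 6 were called higher (37.5%) and 3 lower (18.8%), with a median of -0.07. All 17 had a summed intensity of 44574 to 50731 in mock, 48927 to 50684 in IMQ and 45956 to 48203 with vanillin. No marker of either list was under an intensity of 1 on any array, but only 2 or 3 values of each array were, so this does not show detection. Some markers were dim: S100a8 read 5.61 to 7.07, at percentile 17.3 of mean signal over all probes. The part of these cells in the leukocyte genes was not tested. In whole tissue a change in the number of cells of a type and a change in RNA per cell cannot be told apart.

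**Figure D4:**
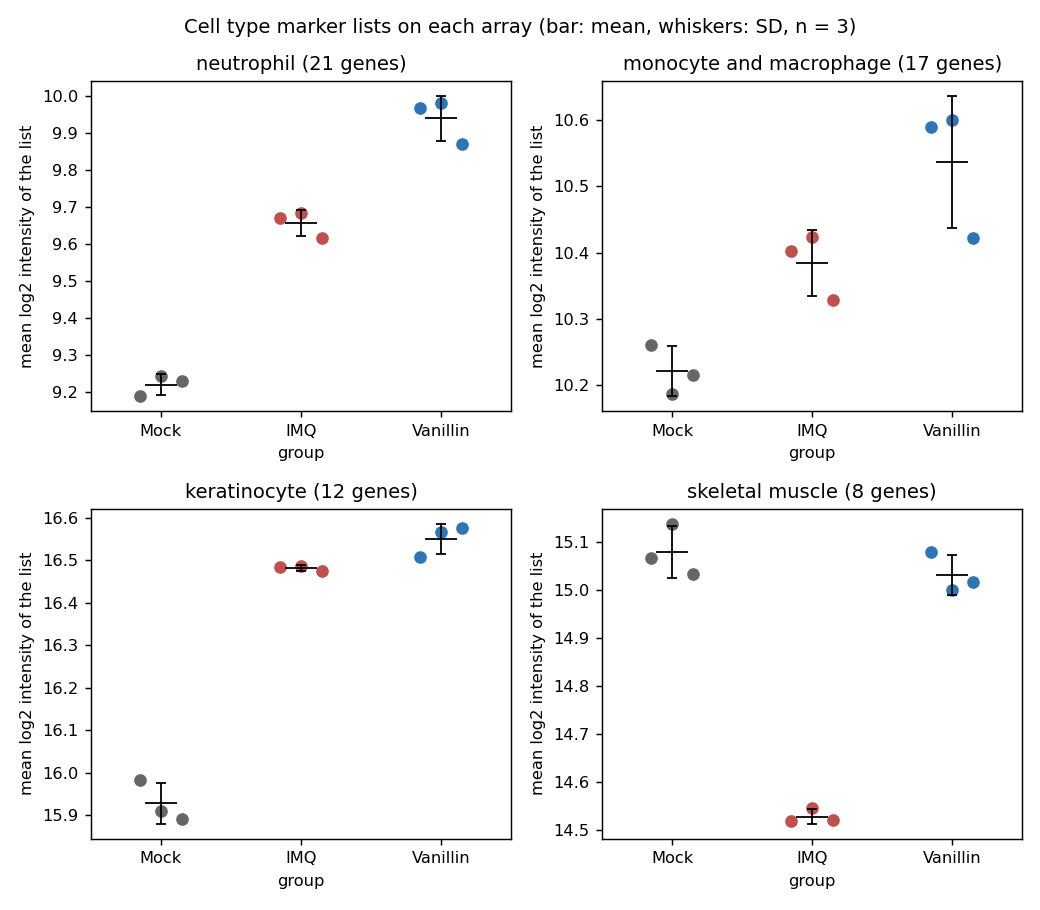
Mean log2 intensity of 4 marker lists (vertical axes, which differ between panels) on each array (points), with the group mean (bar) and SD (whiskers, n = 3) in the mock, IMQ and vanillin groups. The neutrophil list reads 9.87 to 9.98 with vanillin, partly by selection since it holds Csf3r, Trem1 and Mmp9, which met the rule (9.9 to 10 against 9.75 to 9.82 in IMQ without them), while the skeletal muscle list is lowest in IMQ (14.52 to 14.54) and about level in mock and vanillin skin.

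Striated muscle genes gave 3 members. Alpk3, an alpha kinase of heart and skeletal muscle, read 10.88, 10.64 and 10.46 in mock, 10.67, 10.70 and 10.57 in IMQ and 11.89, 11.83 and 11.58 in vanillin skin. Popdc3, a Popeye-domain protein of muscle, stood 0.96 above IMQ, and Asb11, an ankyrin and SOCS box protein of muscle, 0.72 above it. None of the 3 was called for IMQ against mock, beside 53.6% of all probes called. The 8 skeletal muscle markers had another profile. For IMQ against mock 6 were called lower, beside 29.6% of all probes, and for vanillin against IMQ 7 higher, beside 24.3%. For vanillin against mock 7 were not called and 1 was lower, beside 14.7% of all probes lower. Their summed intensity was 402848 to 424185 with vanillin and 403597 to 447171 in mock. None of the 8 had all vanillin arrays above the other 6, beside 7.21% of all probes. With 8 genes nothing is read from that count.

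Metabolic enzymes gave 4 members, none called for IMQ against mock, beside 53.6% of all probes called. Alas2, the erythroid enzyme of the first step of heme synthesis, read 11.88, 11.44 and 11.32 in mock, 11.45, 11.44 and 11.43 in IMQ and 12.66, 12.88 and 12.60 in vanillin skin, 2.41-fold above IMQ. Of 7 red blood cell markers only Alas2 and Slc4a1, the anion exchanger of red cells, were measured, and Slc4a1 was lowest with vanillin, at 10.20 to 10.54 against 10.70 to 10.81 in IMQ and 11.21 to 11.65 in mock. The housekeeping isoenzyme Alas1 read 0.19 for vanillin against IMQ (adjusted p = 0.135).

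Uox, which oxidises uric acid, read 10.26, 9.98 and 9.97 in mock, 9.74, 9.90 and 9.72 in IMQ and 10.96, 11.03 and 10.71 in vanillin skin. Its fitted difference of -0.29 ± 0.12 between IMQ and mock was not called (SE, adjusted p = 0.0777), but was without vanillin replicate 3 (adjusted p = 0.0435). Sc5d, a late enzyme of cholesterol synthesis, lay just inside the margin at 0.7041 above IMQ, while Ebp and Dhcr7 of the same pathway read -0.31 and -0.16 for vanillin against IMQ. Aadacl4fm5, of the arylacetamide deacetylase-like family, stood 0.85 above IMQ.

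Genes best known from nerve, sense organs or germ cells gave 10 members, and imiquimod raised 5 of them, beside 24.0% of all probes. Cdhr1, a cadherin-related protein of photoreceptors, read 8.90, 9.07 and 8.80 in mock, 10.67, 10.70 and 10.70 in IMQ and 11.87, 11.67 and 11.66 in vanillin skin. It rose 3.41-fold with imiquimod (adjusted p = 4.75e-06) and the vanillin group read a further 2.06-fold higher. Ttll13, a tubulin polyglutamylase, rose by 1.47 ± 0.09 and Rhox10, a homeobox gene of reproductive tissue, by 1.06 ± 0.17. Clrn1, named for its part in hair cells of the ear, rose by 0.61 ± 0.11 and Lrrc4, a synaptic adhesion protein, by 0.58 ± 0.13.

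The other 5 of these genes were not called for IMQ against mock: Ptprz1 (a receptor tyrosine phosphatase of glia), Epb41l3 (a band-4.1-like membrane scaffold), Odf1 (an outer dense fibre protein of sperm tails), Spire2 and Grid2ip. Epb41l3 was called without mock replicate 1 (0.39, adjusted p = 0.0191) and Grid2ip without IMQ replicate 2 (-0.70, adjusted p = 0.0346). Spire2, an actin nucleator, had the narrowest separation of the 59: its lowest vanillin array (9.64) cleared the highest IMQ array (9.60) by 0.03. Grid2ip, a scaffold of Purkinje cell synapses, had the widest mock spread (SD 0.39) and read 7.67 to 8.57 in IMQ. A brighter Grid2ip probe with a mean of 9.33 did not separate the groups, since it read 9.02 to 10.11 with vanillin and 9.36 to 9.39 in IMQ.

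Of the remaining 11 named genes none was called for IMQ against mock, beside 53.6% of all probes called. Atp10a, a phospholipid flippase, read 9.02, 8.99 and 8.95 in mock and 9.04, 9.06 and 9.03 in IMQ but 10.30, 10.33 and 10.79 in vanillin skin, 2.70-fold above IMQ. Its mock and IMQ arrays differed by 0.05 ± 0.13 (SE, adjusted p = 0.746). Rnh1, the ribonuclease inhibitor, stood 0.87 above IMQ on the member probe, and its second, bright probe showed the same order with a smaller step, 14.63 to 14.72 with vanillin against 14.34 to 14.47 on the other arrays. Mindy4, a deubiquitinase, had an IMQ array at 8.57 and another at 9.61, with the widest IMQ spread of the set (SD 0.54), and its second probe was higher in mock than with vanillin. The other 8 stood 0.73 to 0.96 above IMQ: Tmem254a, Smim3, Abraxas1 (a scaffold of the BRCA1-A complex), Tspan8 (a tetraspanin), Polk (a translesion DNA polymerase), Mrps25 (of the mitochondrial ribosome), Fkbp15 and Bend4. Smim3 read 0.32 higher in IMQ than in mock with an adjusted p of 0.0562 and was called in 7 alternatives, and Bend4 was called without mock replicate 1 (0.36, adjusted p = 0.0451).

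The 3 genes with clone names included the largest vanillin step of the set. 9130409I23Rik read 6.85, 6.83 and 6.69 in mock, 8.01, 8.20 and 7.85 in IMQ and 9.87, 10.01 and 9.53 in vanillin skin. It rose by 1.23 ± 0.14 with imiquimod (SE, adjusted p = 0.000159) and stood 3.44-fold above IMQ with vanillin. D830031N03Rik was the other gene that fell with imiquimod, by 0.35 (adjusted p = 0.0123), a call lost without IMQ replicate 3 (adjusted p = 0.0547), and 1700030C10Rik stood 1.11 above IMQ without a call against mock.

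The members shared an order of arrays inside the groups that the rule did not name. Vanillin replicate 3 was the lowest vanillin array for 47 of 59 genes (79.7%), beside 42.3% of all probes. Mock replicate 1 was the highest mock array for 43 (72.9%), beside 37.1%, and IMQ replicate 3 the lowest IMQ array for 43, beside 40.9%. All 3 held at once for 35 genes (59.3%), beside 13.4% of all probes. Without vanillin replicate 3 the rule kept 96 probes, among them 56 of the 59. These genes are therefore not 59 independent observations.

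Most members rest on a single probe. For 50 genes the array had no other probe, and the other 9 genes had 12 more probes. Of these 12, 7 had vanillin as the highest mean. In those 7 vanillin exceeded the next group mean by only 0.02 to 0.07, except for Rnh1 (0.24) and 1 Grid2ip probe (0.40). All vanillin arrays lay above the rest in 2 of the 12 (of Rnh1 and Grid2ip), beside 7.21% of all probes. Only 3 of the 12 had a mean of 8 or more, those of Pde4b, Rnh1 and Grid2ip described above. On the chromosomes, 58 genes could be placed, and 3 pairs lay within 10 protein-coding genes of each other: Lce3a beside Lce3b, Cd5 with Slc15a3 at 2 steps, and St8sia4 with Macir at 5.

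At the edges of the rule, the nearest genes outside the margin were Ces2e (0.699), Grip1 (0.693) and Megf9 (0.686). Fcer2a, Serpina9 and D6Ertd527e missed the mean of 8, at 7.896 to 7.927, while Mrps25, 9130409I23Rik and Trem1 were just above it at 8.12 to 8.24. Obp2b, Mhrt and the predicted gene Gm10319 had the margin and the mean but overlapped with another array. Inside the separation condition the closest were Spire2, Slfn4 and Mindy4, whose lowest vanillin array cleared the others by 0.03, 0.17 and 0.18.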

How the data were processed

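The deposited table holds linear probe intensity values of 26423 probes on 9 arrays, whose medians are nearly equal; per the submitters' processing notes limma was used, with no version, while scanner, background correction and filter: not given in the sources used here. Values under 1 were set to 1 and log2 was taken, with no further normalization. Symbols came from the platform annotation and were updated through the GRCm38.p6 gene table (18213 current, 2126 updated, 38 kept, 6046 probes unnamed). The prefixes of the rule were matched to the annotated and the updated symbol, ignoring case.

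Using limma 3.58.1 under R 4.3.3, all 9 arrays entered 1 linear model per probe with the 3 group means as terms, and p-values were adjusted by Benjamini-Hochberg over all probes; a call is an adjusted p under 0.05. The procedure was checked on simulated data for IMQ against mock. Of 100 probes changed by 1 on the log2 scale 72 were recovered, and of 100 changed by 2, 95, while 14 unchanged probes were called. Only these probes were changed and the spreads were shuffled among probes, while 53.6% of probes were called in the real data. The recovered shares therefore do not give the sensitivity of the real test. Changes smaller than 1 were not simulated, so a gene without a call may still differ between IMQ and mock. Lists were represented by the brightest probe of each gene. Named were the 25 genes with the largest smaller margin, members of the lists, the 5 largest changes of IMQ against mock each way, genes at the thresholds, genes with several probes, and further members that fill out a role, chosen after their values were seen. The members and lists were chosen with earlier results of these data known. The role groups were drawn after the members were known. Alternatives changed the normalization, offset, filter, spread estimate, replicate block, arrays and the rule. Same-numbered arrays did not deviate together, so the replicate numbers were not used as pairs.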

Additional observations from a re-analysis of the deposited data

How the results depend on the processing

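Over 17 alternatives of the fit, 0 called changes of IMQ against mock among the 59 genes changed sign in limma; 44 of 1003 values took the other sign, none of them called, 3 genes lost a call under some alternative and 15 gained one. Quantile normalization and median centring kept the same 59 genes, and log2(value + 50) kept 51, of which 48 were shared. The count moved to 211 with a margin of 0.5 and to 12 with a margin of 1. It ran from 53 to 96 when an array was left out, the 96 without vanillin replicate 3. Genes called higher for IMQ against mock numbered 29 with array weights, 62 and 6 with margins of 0.5 and 1, and 11 with a mean of 9, in place of 17. Genes called lower numbered 5 with array weights, 13 and 0 with those margins, 4 with a mean of 7 and 1 with a mean of 9, in place of 2. They ranged from 1 without IMQ replicate 3 to 4 without vanillin replicate 3, and the median change was 0.40 with a margin of 1 and 0.056 to 0.171 when an array was left out. Probes called for vanillin against IMQ ran from 6576 without IMQ replicate 3 and 6923 without IMQ replicate 1 to 12805 without vanillin replicate 3, against 10898. With the replicate number as a block 17 genes were called higher and 3 lower, Csf3r being gained at -0.39 (adjusted p = 0.0483); correlations of same-numbered arrays ran from -0.265 to 0.222, so the block is no pairing. Marker lists were also read without the genes that met the rule, an alternative chosen after seeing the data. The number of arrays, and a single probe for most genes, limit these results.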
